A study of Mus musculus with 9 samples.

Results

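The immunity-related GTPases (IRGs) and guanylate-binding proteins (GBPs) are interferon-inducible GTPases, and 7 of their genes are described here in mouse blood-forming cells: the IRG genes Iigp1, Irgm1, Irgm2 and Igtp and the GBP genes Gbp2, Gbp3 and Gbp7. The genes were taken by symbol from a count table with 47480 gene names. All 7 were among the 16426 genes that passed a filter on low counts. RNA was sequenced from primary hematopoietic cells of C57BL/6 mice in 9 libraries of 4 groups. MP cells, which the labels call progenitors without spelling the abbreviation out, gave 3 libraries of polysomal RNA and 2 of total RNA. LSK cells, labelled as stem cells, gave 2 libraries of polysomal RNA and 2 of total RNA. The cells of all groups had stood for 10 min in 100 ug/ml cycloheximide, a drug that stalls elongating ribosomes, and the labels name no interferon treatment. Polysomal RNA came from fraction 7 of 10 of a 10 to 60% sucrose gradient, and total RNA from a portion of the lysate kept off the gradient. The labels give no age, sex or pooling of animals and do not say whether the libraries of a group come from separate animals, so the spread behind the p-values may be technical.

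Interferons bind receptors that signal through JAK kinases to STAT transcription factors. Interferon gamma acts on genes through the gamma-activated site (GAS), and type I interferon through the interferon-stimulated response element (ISRE), which a complex that holds IRF9 binds and which IRF1 also binds. In mouse cells the effector IRGs and the GBPs load onto vacuoles that hold intracellular pathogens such as Toxoplasma gondii. The regulatory IRGs Irgm1, Irgm2 and Igtp (Irgm3) reside on the cell's own membranes and keep the effectors from acting there. Mice without Irgm1 are known for defects of hematopoietic stem cells.

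The promoters are shown because the members' shared response to interferon is read from such sequences. RefSeq windows (GRCm38.p6) of 300 bases, from 250 bases before to 50 bases from the start of transcription, were matched for 6 of the 7 members, with 2 windows for Gbp3. Iigp1 is named only. Capitals mark the ISRE core, which is GAAA, any 2 bases and GAAA again, or its reverse complement with TTTC at both ends, and the GAS core, which is TTC, any 3 bases and GAA and reads the same on both strands. Each line gives the coding strand 5′ to 3′. Igtp lies at chr11:58199306-58199605 and Irgm2 at chr11:58214727-58215026, Gbp2 at chr3:142620413-142620712 and Gbp7 at chr3:142530086-142530385, all on the plus strand.
Igtp: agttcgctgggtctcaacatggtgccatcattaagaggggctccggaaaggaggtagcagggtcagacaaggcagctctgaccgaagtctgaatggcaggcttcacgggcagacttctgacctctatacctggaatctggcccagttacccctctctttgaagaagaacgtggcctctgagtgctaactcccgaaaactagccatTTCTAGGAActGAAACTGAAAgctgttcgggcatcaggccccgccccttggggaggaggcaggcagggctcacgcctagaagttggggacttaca
Irgm2: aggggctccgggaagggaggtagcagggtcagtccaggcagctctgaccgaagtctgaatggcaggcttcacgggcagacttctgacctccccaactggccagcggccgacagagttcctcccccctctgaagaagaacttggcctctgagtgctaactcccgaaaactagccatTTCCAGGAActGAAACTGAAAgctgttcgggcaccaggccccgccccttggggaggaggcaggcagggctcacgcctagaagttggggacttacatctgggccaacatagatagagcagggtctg
Gbp2: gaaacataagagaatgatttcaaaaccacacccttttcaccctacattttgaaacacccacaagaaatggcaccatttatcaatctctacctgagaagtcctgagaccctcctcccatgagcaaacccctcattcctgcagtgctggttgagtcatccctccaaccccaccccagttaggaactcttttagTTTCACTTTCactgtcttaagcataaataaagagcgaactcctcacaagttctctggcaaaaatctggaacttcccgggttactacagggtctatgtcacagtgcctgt
Gbp7: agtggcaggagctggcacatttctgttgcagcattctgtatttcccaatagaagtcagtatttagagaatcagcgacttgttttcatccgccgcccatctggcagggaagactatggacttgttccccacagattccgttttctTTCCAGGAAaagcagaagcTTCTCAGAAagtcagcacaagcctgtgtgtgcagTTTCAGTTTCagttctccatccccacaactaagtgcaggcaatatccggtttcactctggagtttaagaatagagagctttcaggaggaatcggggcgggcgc
The ISRE core was found in 6 of the 7 windows and in all 6 genes, against 3.44% of 32851 windows in the whole promoter table. The GAS core was found in 3 windows, those of Irgm2, Igtp and Gbp7, against 8.3% of all windows. These 3 windows held both, as 0.454% of all windows did. In Igtp and Irgm2 the GAS core stands just before the ISRE core GAAACTGAAA, with the bases ct between them, and the 2 windows share 72.8% of 335 aligned columns. The other pairs of windows shared 51.1% or less. Irgm1, transcribed from the minus strand, holds the overlapping matches GAAATAGAAA and GAAACCGAAA at 30 and 24 bases before the start. The upstream window of Gbp3 holds the overlapping matches TTTCAGTTTC and TTTCTATTTC at 45 and 39 bases before the start, and its downstream window holds no match. A match is a run of letters and not a measured binding site.

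**Figure D1:**
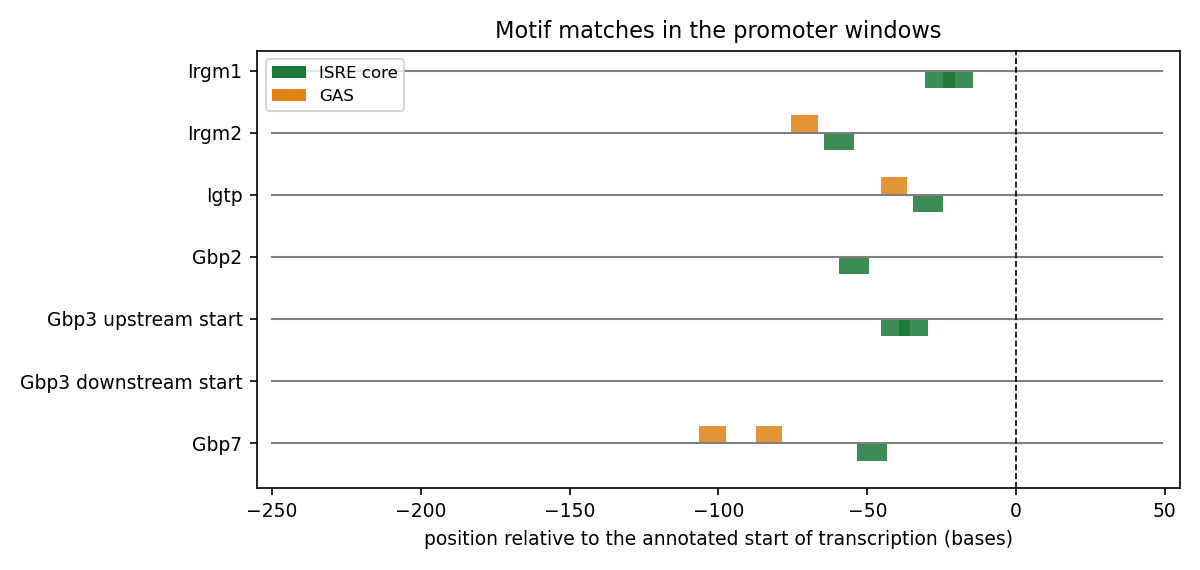
Matches of the ISRE core and of the GAS core in the promoter windows of 6 members, with the distance from the transcription start in bases on the horizontal axis. The matches lie upstream of the start, and the downstream window of Gbp3 is empty.

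The members lie on 3 chromosomes (GRCm38, GENCODE M21), and all are annotated as protein-coding. Igtp (chromosome 11, 58199556 to 58207591) and Irgm2 (chromosome 11, 58199618 to 58222782) overlap on the plus strand, so reads in the shared part may be split between them or dropped. Irgm1 lies on the minus strand of chromosome 11 (48861968 to 48871683). The GBP genes stand in a row on the plus strand of chromosome 3, Gbp7 (142530342 to 142550149), Gbp3 (142560026 to 142573209) and Gbp2 (142620602 to 142638008), with no other protein-coding gene between Gbp7 and Gbp3. Iigp1 lies on chromosome 18 (60376027 to 60392634, plus strand).

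Before the members, the libraries themselves were checked. Total counts per library ranged from 27342343 to 34807735, and the median biological coefficient of variation was 0.56. Levels are counts scaled to library sizes corrected by edgeR's TMM method, a trimmed mean of ratios between libraries, and given as CPM. Ly6a, which encodes the Sca-1 antigen that defines LSK cells, averaged 0.775 ± 0.270 CPM in MP and 63.8 ± 19.3 CPM in LSK total RNA (SD, n = 2 each). Summed stem cell markers were at 47.1 to 67.7 CPM in the MP and 697 to 1190 CPM in the LSK libraries. Some libraries stood apart by markers of other cells. Maturing neutrophil markers summed to 17700 and 14300 CPM in MP polysomal 1 and MP total 1, against 511 to 1000 CPM in the other MP libraries and 440 to 2400 CPM in the LSK libraries. B cell markers summed to 154 to 356 CPM in the MP libraries, against 870 and 597 CPM in LSK polysomal 1 and LSK total 1 and 3280 and 4270 CPM in LSK polysomal 2 and LSK total 2. Macrophage and dendritic cell markers summed to 85.4 to 197 CPM in MP and 12.7 to 98.9 CPM in LSK libraries. Yet of the 8 markers of this list that were tested, 6 had a lower and 2 a higher level in MP, averaged over both fractions. Their median log2 change of MP over LSK was −1.52, so the sum does not stand for the whole list. T and NK cell markers summed to 492 to 974 CPM in MP and 358 to 614 CPM in LSK libraries. Only 4 of the 8 markers of that list were tested. Averaged over both fractions, 2 of them had a lower and 2 a higher level in MP, at a median log2 change of −0.71. This sum does not stand for its whole list either. In bulk samples, fewer cells of a type and less RNA per cell cannot be told apart.

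Of the 4 IRGs, Iigp1 fell in MP cells in both fractions, and the 3 regulatory IRGs did not pass within a fraction. Changes are log2 fold changes of MP over LSK with their standard error (SE), and adjusted p-values are from edgeR's quasi-likelihood test over all 16426 genes, with 0.05 as the threshold.

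Iigp1 encodes an effector IRG that coats pathogen vacuoles. It stood at 1.95, 1.32 and 0.765 CPM in the 3 MP polysomal libraries, against 43.1 and 8.47 CPM in the 2 LSK polysomal libraries. Its MP total libraries held 0.300 and 0.195 CPM, from 9 and 6 counts, against 45.5 and 22.5 CPM in LSK total RNA. Every LSK library was above every MP library in both fractions. The log2 change was −7.08 in total RNA (SE 1.08, adjusted p = 0.0326) and −4.26 in polysomal RNA (SE 0.789, adjusted p = 0.0245), and Iigp1 fell in both. The total RNA call was lost when 1 of either population's total libraries or 1 of the 3 MP polysomal libraries was dropped, at log2 changes of −7.50 to −6.47. In polysomal RNA the call was lost without LSK polysomal 1, at −2.56, and without each MP polysomal library in turn, at −4.66 to −3.98.

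Irgm1 encodes a regulatory IRG. It stood at 147, 130 and 88.7 CPM in MP polysomal libraries and at 244 and 123 CPM in LSK polysomal libraries, so the groups overlapped. In total RNA it stood at 54.1 and 44.0 CPM in MP and at 127 and 99.4 CPM in LSK, with no overlap. The log2 changes of −1.21 in total RNA (SE 0.523, adjusted p = 0.278) and −0.59 in polysomal RNA (SE 0.466, adjusted p = 0.569) did not pass.

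Irgm2, a second regulatory IRG, stood at 20.7, 18.3 and 9.91 CPM in MP polysomal RNA, against 76.0 and 30.3 CPM in LSK polysomal RNA. In total RNA it stood at 9.06 and 5.62 CPM in MP, against 69.1 and 25.4 CPM in LSK. The groups did not overlap in either fraction, but the LSK libraries of each fraction lay far apart, and the log2 changes of −2.69 (SE 0.761, adjusted p = 0.114) in total and −1.71 (SE 0.645, adjusted p = 0.198) in polysomal RNA did not pass.

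Igtp, the third regulatory IRG, stood at 56.1, 46.1 and 31.7 CPM in MP polysomal RNA, against 188 and 133 CPM in LSK polysomal RNA. In total RNA it stood at 23.5 and 16.7 CPM in MP, against 72.3 and 47.7 CPM in LSK. No MP library reached an LSK library of the same fraction. The log2 changes were −1.58 in total RNA (SE 0.538, adjusted p = 0.174) and −1.84 in polysomal RNA (SE 0.475, adjusted p = 0.0706), neither past the threshold.

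No GBP member passed within a fraction. Gbp2, whose product helps attack parasite vacuoles in mouse cells, stood at 20.8, 16.8 and 10.4 CPM in MP polysomal RNA, against 149 and 43.7 CPM in LSK polysomal RNA. In total RNA it stood at 11.02 and 6.20 CPM in MP, against 63.2 and 55.5 CPM in LSK. The groups did not overlap in either fraction. The log2 changes of −2.78 in total (SE 0.728, adjusted p = 0.0941) and −2.59 in polysomal RNA (SE 0.624, adjusted p = 0.057) missed the threshold.

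Gbp3, a GBP that loads onto the same vacuoles, had opposite signs in the fractions. It stood at 92.9, 66.0 and 40.7 CPM in MP polysomal RNA, between the 105 and 14.7 CPM of the LSK polysomal libraries. In total RNA it stood at 27.4 and 19.2 CPM in MP, against 62.5 and 39.6 CPM in LSK. The log2 change was −1.13 in total RNA (SE 0.838, adjusted p = 0.554) and 0.15 in polysomal RNA (SE 0.758, adjusted p = 0.946). The polysomal value turned to −0.65 without LSK polysomal 2, to −0.20 without MP polysomal 1 and to −0.04 with library totals in place of TMM.

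Gbp7, whose product was linked to oxidative defence in mouse macrophages, stood at 71.2, 38.8 and 33.3 CPM in MP polysomal RNA and at 132 and 31.0 CPM in LSK polysomal RNA, which overlap. In total RNA it stood at 15.4 and 10.4 CPM in MP, against 121 and 72.9 CPM in LSK, with a wide gap. The log2 changes were −2.91 in total RNA (SE 0.784, adjusted p = 0.0987) and −0.77 in polysomal RNA (SE 0.658, adjusted p = 0.608). Without LSK polysomal 1 the polysomal value turned to 0.72.

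**Figure D2:**
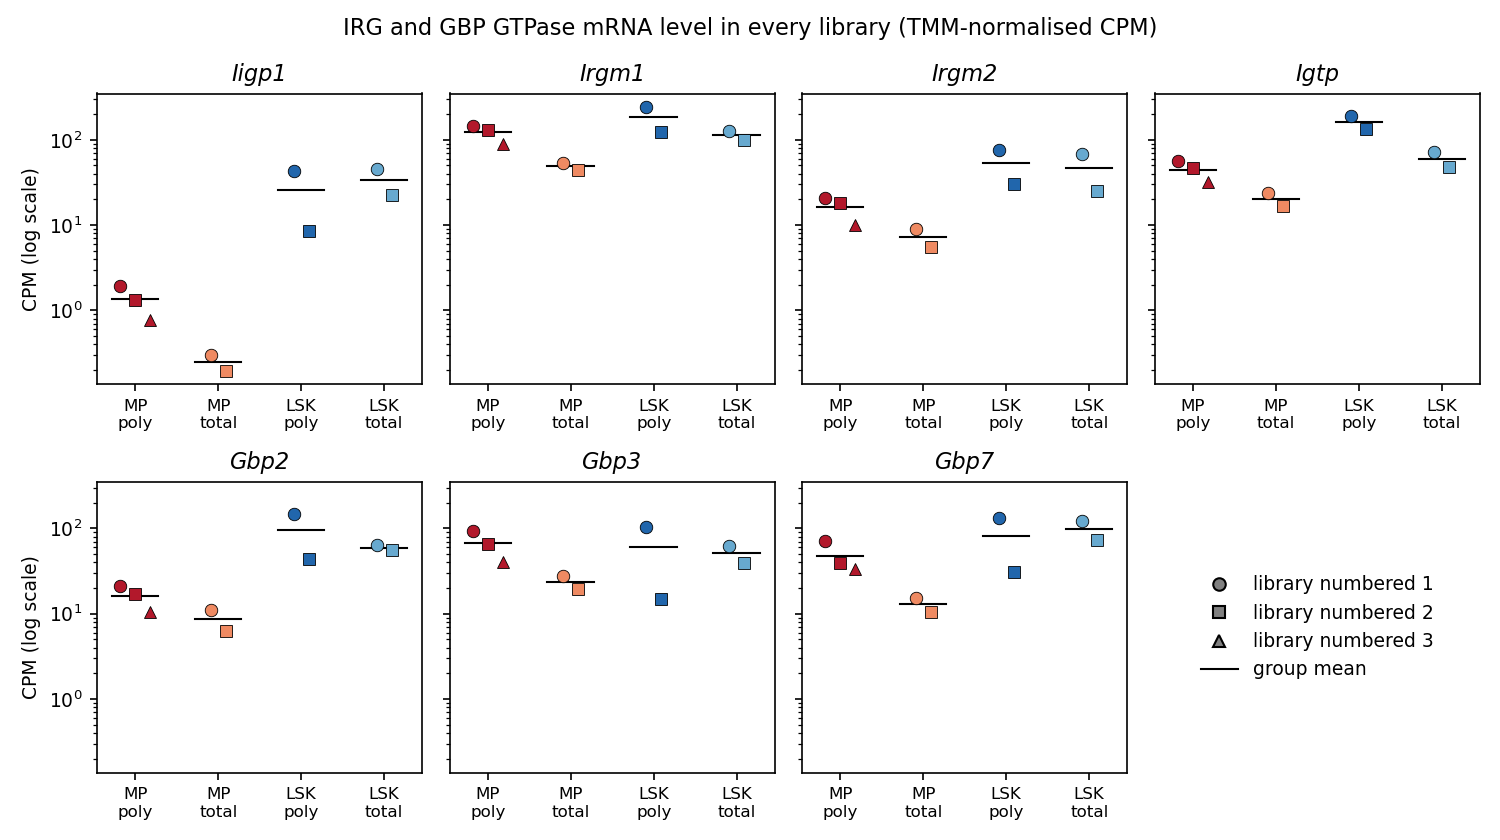
Level of each member in every library in CPM on a log axis, for MP polysomal, MP total, LSK polysomal and LSK total RNA, with a point per library, shaped by its number, and a line at the group mean. Iigp1 stands between 0.195 and 1.95 CPM in the MP libraries and between 8.47 and 45.5 CPM in the LSK libraries, while the polysomal levels of Gbp3 overlap.

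In total RNA 1 of the 7 members passed, lower in MP, where 0.816% of all tested genes did. 6 members had an unadjusted p under 0.05 and a lower level in MP, against 12.5% of all genes, and all 7 had no overlap between the groups, lower in MP, against 28.5% of all genes. The median log2 change of the 7 was −2.69, against −0.01 over all genes. In polysomal RNA 1 of 7 passed, against 2.83% of all genes, and 4 had an unadjusted p under 0.05, against 11.7%. Iigp1, Irgm2, Igtp and Gbp2 did not overlap, as 17.4% of all genes did not, lower in MP. The median was −1.71, against −0.03 over all genes.

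Averaged over both fractions, 5 members fell in MP cells: Iigp1, Gbp2, Irgm2, Gbp7 and Igtp. The share of all genes that fell was 7.37%. The log2 change was −5.67 for Iigp1 (SE 0.679, adjusted p = 0.00197), −2.68 for Gbp2 (SE 0.483, adjusted p = 0.00903), −2.20 for Irgm2 (SE 0.498, adjusted p = 0.0232), −1.84 for Gbp7 (SE 0.503, adjusted p = 0.0483) and −1.71 for Igtp (SE 0.361, adjusted p = 0.0173). Irgm1 at −0.90 (SE 0.349, adjusted p = 0.146) and Gbp3 at −0.49 (SE 0.559, adjusted p = 0.686) did not pass. The libraries of Iigp1, Irgm2 and Gbp2 did not overlap between the populations, as those of 8.51% of all genes did not, lower in MP. The median was −1.84, against −0.01 over all genes.

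Iigp1 passed in this average under each of the 20 settings run, at log2 changes of −6.25 to −4.28. Gbp2 missed the threshold without MP total 2 (−2.50), and Igtp missed it without LSK total 1, MP polysomal 2, MP total 1 or MP total 2 (−1.83 to −1.53). Irgm2 missed it without LSK polysomal 1, LSK total 1, MP polysomal 2, MP polysomal 3, MP total 1 or MP total 2 (−2.38 to −1.74). Gbp7 missed it without any one library but LSK polysomal 2 (−2.08 to −1.13), and also with DESeq2's size factors (−1.83), with limma on the authors' normalized values and with the replicate block as a random effect (−1.75 in both). With a further miss without both MP libraries numbered 1, it passed in 8 of the 20 settings run. Gbp3 turned to 0.54 without LSK polysomal 1. Polysomal and total libraries likely share lysates, and this average treats them as independent.

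The average was also taken without the libraries high in markers of other cells. Without both LSK libraries numbered 2, which had the highest B cell markers, 1 library was left in each LSK group, so only log2 changes are given. The same 5 members stood at −6.25 for Iigp1, −3.04 for Gbp2, −2.73 for Irgm2, −2.35 for Gbp7 and −1.96 for Igtp. Without both MP libraries numbered 1, which had the highest neutrophil markers, 1 MP total library was left, so again only log2 changes are given. The direction held, at −6.00 for Iigp1. Gbp2 then stood at −3.03, Irgm2 at −2.46, Igtp at −1.92 and Gbp7 at −2.18. Whether the libraries left out bear on the members through these markers was not tested.

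**Figure D3:**
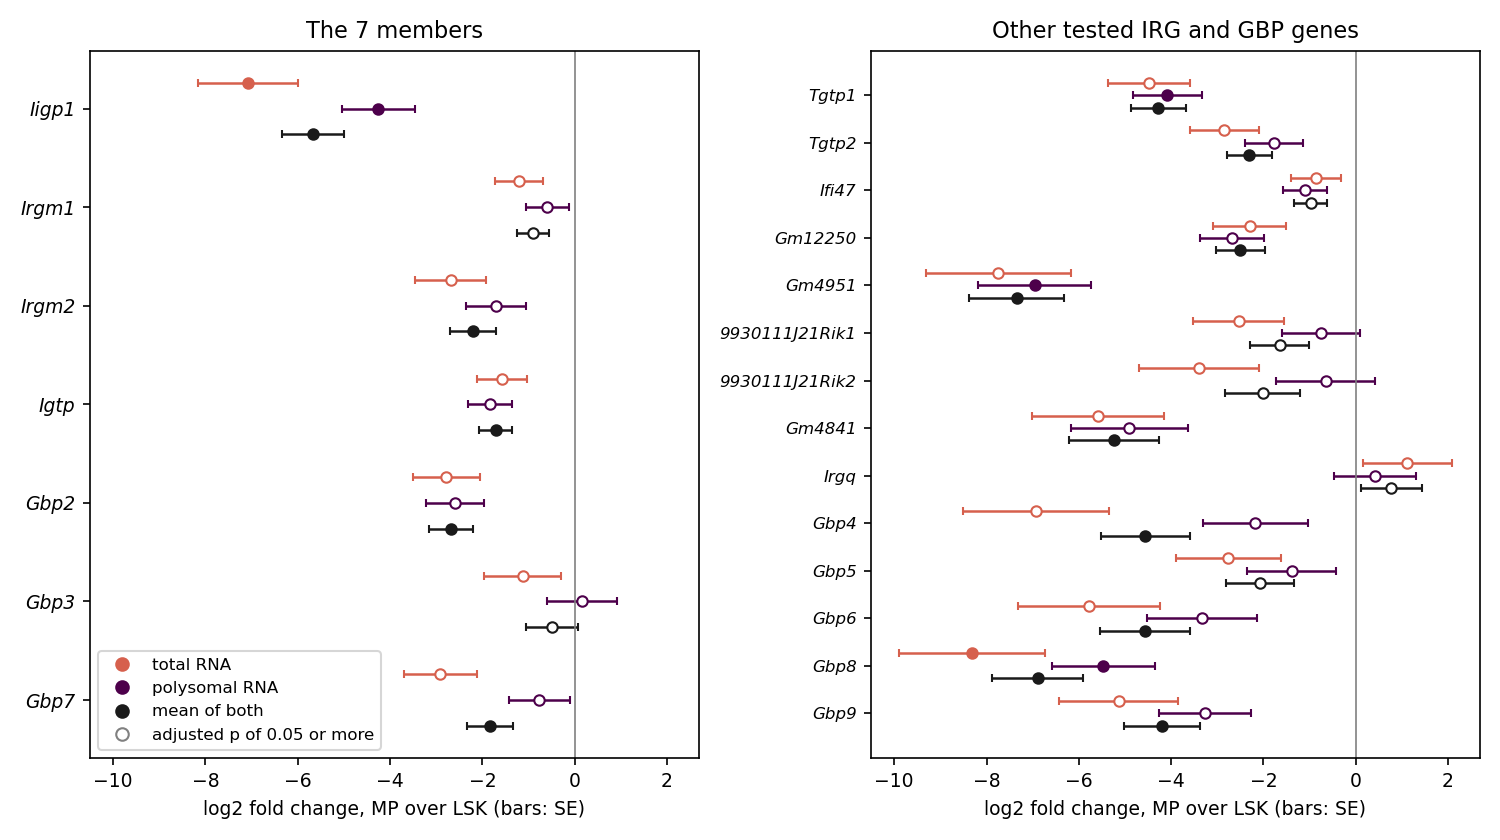
Log2 fold change of MP over LSK for the members and for other IRG and GBP genes, in total RNA, in polysomal RNA and as the mean of both, with the SE as bars and filled circles where the adjusted p is under 0.05 (F830016B08Rik, at 0 counts in MP, is left out). Iigp1 is filled in all 3, at −7.08 in total and −4.26 in polysomal RNA, and Gbp3 lies on both sides of 0, with its polysomal value at 0.15, or −0.04 with library totals.

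The members ranked alike within groups. In all 7, MP polysomal 1 was the highest and MP polysomal 3 the lowest library of its group, and library 1 exceeded library 2 in MP total, LSK polysomal and LSK total RNA. LSK polysomal 1 held the highest level of 6 members and LSK total 1 that of Iigp1. MP total 2 held the lowest level of 6 and LSK polysomal 2 that of Gbp3. The ratio of LSK polysomal 1 over 2 was 7.14 for Gbp3, 5.08 for Iigp1 and 4.25 for Gbp7, and ran to 1.42 for Igtp, where the median of all genes was 2.13. The labels do not say that equal numbers mark shared cells, and whether the libraries that stood apart by markers bear on this was not tested. Across the 9 libraries the 21 pairs of members correlated at Pearson r of 0.373 to 0.958 on the log2(CPM + 1) scale (median 0.843). The lowest values were of Gbp3 with Iigp1 (0.373) and Igtp (0.374). The libraries share groups, so these are descriptions.

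Per kilobase of exon, Igtp stood first in every group, at 22.1 CPM per kb in MP polysomal, 9.94 in MP total, 79.2 in LSK polysomal and 29.7 CPM per kb in LSK total RNA. In MP polysomal RNA Irgm1 (20.98 CPM per kb) and Gbp3 (20.4) followed within the spread of the libraries. In LSK polysomal RNA Gbp2 (38.2 CPM per kb) and Irgm1 (31.6) followed. Gbp2 was second in LSK and lower in the order in MP, at 6.36 CPM per kb in polysomal RNA, behind Gbp7 (8.51), and 3.42 CPM per kb in total RNA, behind Gbp3 (7.14). Iigp1 was last in every group, at 0.231 and 0.0425 CPM per kb in MP polysomal and total RNA and at 4.43 and 5.83 CPM per kb in LSK polysomal and total RNA.

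Polysomal RNA was next set against total RNA, a comparison that bears on how much of a message sediments with several ribosomes. No member passed it in either population, and no gene of the 16426 did by edgeR (0%). The direction was to higher polysomal levels in MP for all 7 members, as for 45.3% of all genes, and mixed in LSK. In MP the log2 changes of polysomal over total RNA ran from 0.89 for Gbp2 to 2.42 for Iigp1 (SE 0.863, adjusted p = 0.656). Iigp1, Irgm1, Igtp and Gbp7 had an unadjusted p under 0.05, as 4% of all genes did with higher polysomal levels. 6 members, all but Gbp2, did not overlap between the fractions, against 16.3% of all genes. The median was 1.31, against −0.08 over all genes. Neutrophil markers were highest in MP polysomal 1 and MP total 1, and their part in these values was not tested. DESeq2's Wald test called 30 genes in this comparison, none of them a member, and 1243 genes had an unadjusted p under 0.05 by edgeR in either direction.

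In LSK, Igtp alone had no overlap, at 188 and 133 CPM in polysomal and 72.3 and 47.7 CPM in total RNA, as 16.2% of all genes had with higher polysomal levels. Its log2 change was 1.42 (SE 0.535, adjusted p = 0.33 by edgeR), and it alone had an unadjusted p under 0.05, as 3.56% of all genes had with higher polysomal levels. The rest ran from −0.40 for Iigp1 to 0.70 for Irgm1, all with an adjusted p of 0.63 or more. The median was 0.23, against 0.02 over all genes. The directions of Irgm1, Irgm2, Gbp2, Gbp3, Gbp7 and Iigp1 turned when a single LSK library was left out, and those of Irgm2 and Gbp3 with library totals (−0.12 and −0.04). DESeq2 called 433 genes and limma on the authors' normalized values 486, none of them a member, and 1981 had an unadjusted p under 0.05 by edgeR.

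Whether the shift from total to polysomal RNA differed between MP and LSK was tested as the interaction. No gene passed by edgeR, 869 had an unadjusted p under 0.05 and DESeq2 called 1 gene, not a member. Iigp1 alone of the members had an unadjusted p under 0.05, as 4.74% of all genes had with a positive interaction. The largest member values were 2.82 for Iigp1 (SE 1.17, adjusted p = 0.877 by edgeR) and 2.14 for Gbp7 (SE 1.01, adjusted p = 0.877). The other members ran from −0.27 for Igtp to 1.29 for Gbp3. Averaged over both populations, the log2 change of polysomal over total RNA ran from 0.66 for Irgm2 to 1.28 for Igtp (SE 0.366, adjusted p = 0.146 by edgeR). Both Igtp and Irgm1 (1.00, adjusted p = 0.226) had an unadjusted p under 0.05, where 4.65% of all genes did with higher polysomal levels.

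**Figure D4:**
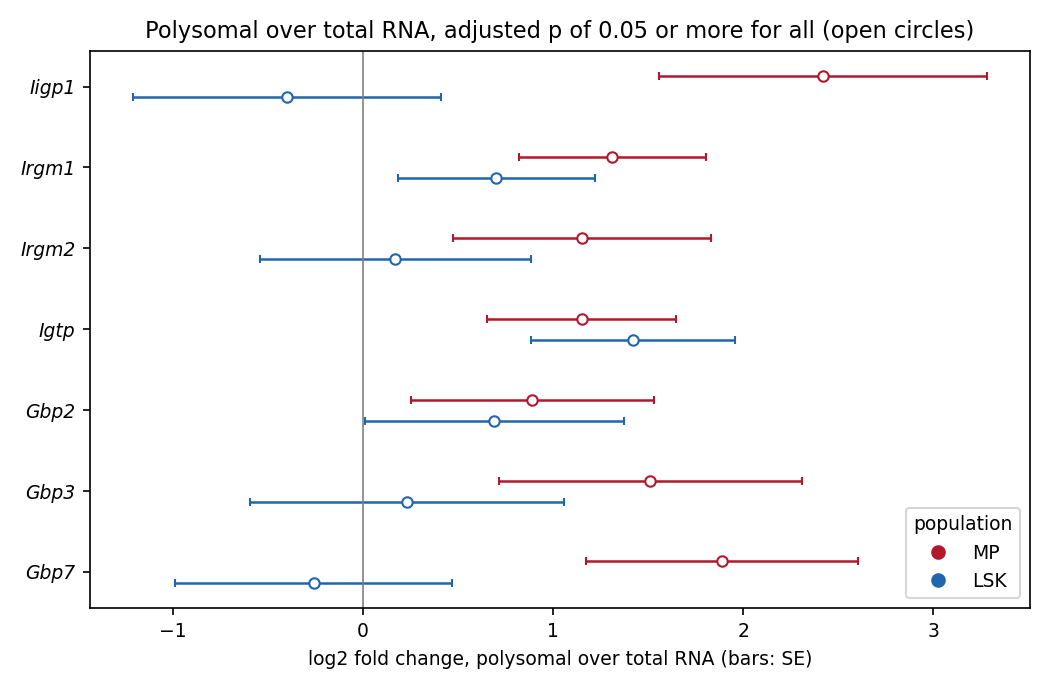
Log2 fold change of polysomal over total RNA for the 7 members in MP and in LSK cells, with the SE as bars and open circles where the adjusted p is 0.05 or more. All MP values lie above 0, between 0.89 and 2.42, and the LSK values lie between −0.40 and 1.42.

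Other IRG genes also fell in MP. Of 10 tested relatives 6 fell in the average of both fractions, 3 in polysomal and 1 in total RNA, and none rose. The shares of all genes that fell were 7.37% in the average, 2.83% in polysomal and 0.816% in total RNA. F830016B08Rik, Gm4951 and Gm4841, which are among the calls, had 5 counts or fewer in every MP library. They passed the low-count filter only through the LSK libraries, so for them the comparison with these shares is not evidence of a fall. The relatives' median log2 changes were −2.40 in the average, −2.23 in polysomal and −3.12 in total RNA. These medians include F830016B08Rik, Gm4951 and Gm4841 and so share this limit. Tgtp1, an effector IRG gene (Irgb6), averaged 1.81 ± 0.887 CPM in MP and 30.8 ± 24.0 CPM in LSK polysomal RNA (SD, n = 3 and 2), a log2 change of −4.08 (SE 0.745, adjusted p = 0.0227 by edgeR). Tgtp1 and Tgtp2 are near-identical copies, so their counts are uncertain. Gm12250 (Irgb10), another effector, fell in the average by 2.50 on the log2 scale (SE 0.533, adjusted p = 0.0182). F830016B08Rik (Ifgga4) had 0 counts in all 5 MP libraries, against 160 and 153 counts in LSK total and 23 and 9 in LSK polysomal RNA. Against a floor of 3 counts per library it was at least 43-fold lower in MP total RNA and at least 5.74-fold lower in MP polysomal RNA. Gm4951 (Ifgga2) had 1, 5 and 0 counts in MP polysomal RNA and 0 and 2 in MP total RNA, against 434 and 73 in LSK polysomal and 289 and 296 in LSK total RNA. Ifi47 (Irgd) was the most abundant relative, with 250 ± 61.6 CPM in MP and 532 ± 238 CPM in LSK polysomal RNA (n = 3 and 2), and did not pass in any comparison (average −0.97, SE 0.358, adjusted p = 0.126). Left out in turn, single libraries gave 4 to 6 calls in the average, the 4 without MP total 2, and 3 genes passed without both MP libraries numbered 1. Gm12250 missed the threshold without LSK total 1 or MP total 2. In polysomal RNA the 3 calls became 0 without LSK polysomal 1, any 1 MP polysomal library or both MP libraries numbered 1, and 2 without LSK polysomal 2 or either LSK total library. In total RNA the call of F830016B08Rik was lost without any 1 LSK total, MP polysomal or MP total library and without both libraries numbered 1 in MP or numbered 2 in LSK, and 3 genes passed without either LSK polysomal library.

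Among the GBP genes that are not members, 5 of the 8 in the table were tested. Gbp4, Gbp6, Gbp8 and Gbp9 fell in the average, Gbp8 in each fraction as well, and none rose. These were 4 of 5 in the average, where 7.37% of all genes fell, and 1 of 5 in polysomal and in total RNA, where 2.83% and 0.816% fell. Gbp4, Gbp6, Gbp8 and Gbp9 had 13 counts or fewer in every MP library and passed the low-count filter through the LSK libraries. Genes this low in MP could be tested only if they were higher in LSK, so these shares are not evidence of a fall. In LSK polysomal 2, Gbp4, Gbp6 and Gbp9 had only 1, 6 and 7 counts (0.0415, 0.249 and 0.291 CPM). The highest MP polysomal library exceeded that for each, at 0.159, 0.273 and 0.414 CPM, so their polysomal groups overlapped. Gbp8 had 2, 7 and 0 counts in MP polysomal and 0 and 1 in MP total RNA, against 210 and 53 in LSK polysomal and 202 and 285 in LSK total RNA. Its log2 change was −8.32 in total RNA (SE 1.58, adjusted p = 0.0459) and −5.47 in polysomal RNA (SE 1.11, adjusted p = 0.0321). Gbp5, which takes part in inflammasome responses, stood at −2.08 in the average (SE 0.737, adjusted p = 0.114) and did not pass. Gbp2b, Gbp10 and Gbp11 held 6 counts or fewer in any library and were not tested. Gbp8 missed the threshold in total RNA without any 1 library but the LSK polysomal ones, and in polysomal RNA without LSK polysomal 1 or any 1 MP polysomal library. The 4 calls of the average became 1 without MP total 1, 2 without LSK polysomal 1, 3 without MP total 2 and 1 without both MP libraries numbered 1.

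Of 15 receptor and signalling genes, 2 fell and 1 rose in the average, where 7.37% of all genes fell and 2.72% rose, at a median of −0.27. None passed in total or polysomal RNA by edgeR, where 3 and 5 had an unadjusted p under 0.05 in either direction, against 17.1% and 17.8% of all genes. Ifngr1, the ligand-binding chain of the interferon gamma receptor, averaged 759 ± 138 CPM in MP and 289 ± 11.9 CPM in LSK polysomal RNA (n = 3 and 2) and 639 ± 224 CPM in MP and 210 ± 23.6 CPM in LSK total RNA (n = 2 each), a log2 change of 1.50 in the average (SE 0.31, adjusted p = 0.0162). Irf9, the DNA-binding subunit of the complex that binds the ISRE, fell by 1.42 on the log2 scale (SE 0.347, adjusted p = 0.0308), and Irf2, known as an antagonist of Irf1, fell by 1.49 (SE 0.379, adjusted p = 0.0358). Irf1 stood at −1.70 (adjusted p = 0.0518) and did not pass. Without MP polysomal 2 or MP total 1, and without both MP libraries numbered 1, 0 of the 15 passed, and 1 passed without LSK total 1, LSK total 2, MP polysomal 3, MP total 2 or both LSK libraries numbered 2.

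Of 7 inhibitors of the pathway, Usp18 fell in polysomal RNA and in the average, and Socs3 in the average. These were 1 of 7 in polysomal RNA, where 2.83% of all genes fell, and 2 of 7 in the average, where 7.37% fell. Usp18, which restrains signalling from the type I receptor, averaged 6.67 ± 0.530 CPM in MP and 42.6 ± 6.49 CPM in LSK polysomal RNA (n = 3 and 2), a log2 change of −2.67 (SE 0.473, adjusted p = 0.0208). Usp18 missed the threshold in polysomal RNA without LSK polysomal 2 or any 1 MP polysomal library. Socs3 stood below 8 CPM in every library. The 2 calls of the average became 0 without MP total 1, without MP total 2 or without both MP libraries numbered 1, and 1 without LSK polysomal 2, LSK total 2, any MP polysomal library or both LSK libraries numbered 2.

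Of 34 tested other interferon-induced genes, 16 fell in the average, 9 in polysomal and 0 in total RNA, and none rose. Of all genes 7.37% fell in the average, 2.83% in polysomal and 0.816% in total RNA. In total RNA 17 of the 34 had an unadjusted p under 0.05 with lower levels in MP, against 12.5% of all genes. The 9 in polysomal RNA were Rtp4, Oasl2, Oas3, Xaf1, Ifit3, Oas2, Zbp1, Oas1a and Isg15, among them 4 genes of the oligoadenylate synthetase family, which sense double-stranded RNA. Rtp4 averaged 3.82 ± 1.81 CPM in MP and 60.8 ± 2.62 CPM in LSK polysomal RNA (n = 3 and 2), at −3.99 (SE 0.655, adjusted p = 0.0175). In polysomal RNA 0 to 6 passed when any single library was left out. Without single libraries the average gave 3 to 16 calls, the 3 without MP total 1 or MP total 2, 8 without LSK total 1 and 10 without MP polysomal 2, and it gave 3 without both MP libraries numbered 1. The GTPase genes Mx2 and Gvin1 fell in the average, of 3 listed with Mx1, by 2.34 and 4.15 on the log2 scale (adjusted p = 0.012 and 0.00663 by edgeR). Mx2 missed the threshold without MP total 1 or MP total 2. Gvin1 stood at 0.0325 and 0.0333 CPM in MP total RNA and at 0.396 CPM or less in MP polysomal RNA. Gvin1 passed the low-count filter through the LSK libraries, so its call is not evidence of a fall. None of 10 genes of ATG8 conjugation, which directs IRGs and GBPs to vacuoles, passed in the average, where 10.1% of all genes passed in either direction, and their median was −0.07.

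The promoter windows of these lists were searched for the same 2 cores. The GAS core was in 3 of 7 IRG relatives with a window, 1 of 2 GBP relatives and 6 of 27 other interferon-induced genes. It was also in 5 of 14 receptor and signalling genes, 1 of 5 inhibitors and 2 of 7 ATG8 conjugation genes, and in 2582 of all 27025 genes with a window. The GBP relatives with a window were Gbp2b, which was not tested, and Gbp5, which did not pass. The ISRE core was in 4 of 7 IRG relatives with a window, 2 of 2 GBP relatives, 13 of 27 other interferon-induced genes, 2 of 14 receptor and signalling genes, 1 of 5 inhibitors and 0 of 7 ATG8 conjugation genes, against 3.99% of all genes with a window.

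The genes whose pattern over the 9 libraries was most like the mean of the members, of 8801 compared, were Serpinb9, Pls3, Trim30a, Trim34a, Ddx58, Gimap9, Bbs4, Rfx3, Stat4 and Tek, at Pearson r of 0.992 for Serpinb9 to 0.969 for Tek. Trim30a, Trim34a and Ddx58 (the RNA sensor RIG-I) are interferon-inducible genes, and Tek encodes a receptor that stem cells use. Serpinb9 averaged 22.9 ± 5.35 CPM in MP polysomal and 10.3 ± 2.12 CPM in MP total RNA, against 65.2 ± 47.1 CPM in LSK polysomal and 47.9 ± 11.3 CPM in LSK total RNA (SD, n = 3, 2, 2 and 2). The same 10 genes came first with DESeq2 size factors, and 5 to 10 of them when a library was left out.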

How the data were processed

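Total and polysomal RNA of MP and LSK cells were sequenced, with cDNA amplified by a SMARTer protocol per the labels' protocols. The authors deposited raw counts per gene symbol. Tools named in the submitters' processing notes are STAR, featureCounts, bcl2fastq and DESeq2, and the builds GRCm38 and mm10. Whether counting used strand is not given in the sources used here, nor are versions. A second deposited table holds normalized log2-like values whose floor is 3.73, used only as an alternative. Groups came from the sample titles.

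The count tests used edgeR 4.0.16 in R 4.3.3 (filterByExpr, minimum count 10, minimum total 15; TMM; a quasi-likelihood fit with a mean per group; 9 libraries; degrees of freedom 5 residual, 4.58 prior). 7 two-sided contrasts were tested, each adjusted by Benjamini-Hochberg over 16426 genes at 0.05. With groups of 2 and 3, an exact permutation test of single values has a smallest p of 0.2, and of 0.33 for 2 against 2, so none was run. Total counts were similar, so the spread between libraries limits the precision. Alternatives were run with DESeq2 1.42.0, limma 3.58.1 and sva 3.50.0. The script was tested on simulated counts. The members, gene lists and tests were chosen with earlier results of these data known. The text names the members, list genes that passed or had the smallest p, and the 10 genes most alike in pattern with a mean of at least 10 CPM, leaving out predicted models and immunoglobulin genes. Promoters are RefSeq windows matched by symbol. Of the 47480 names 27 read as dates. The result of 1 gene of the signalling list is not reported here.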

Additional observations from a re-analysis of the deposited data

How the results depend on the processing

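Each comparison was recomputed with other scalings, filters, tools and libraries. In total RNA, 1 member passed; 4 passed with no filter, with 1 surrogate variable, with the replicate block and with DESeq2's Wald test, 2 with limma on the authors' normalized values, and 0 with the compared groups alone or without both MP libraries numbered 1. Leaving out each library gave 0 to 3. In polysomal RNA, 1 passed; 4 passed with 1 surrogate variable, 3 with DESeq2's Wald test, 2 with no filter and without both LSK libraries numbered 2, and 0 with the compared groups alone or without both MP libraries numbered 1. Leaving out each library gave 0 to 2. In the average of both fractions 5 passed, 4 with DESeq2's size factors, with limma on the authors' normalized values and with the replicate block as a random effect, where Gbp7 did not, and 1 without both MP libraries numbered 1, with 1 to 5 when a library was left out. For polysomal over total RNA averaged over populations, 0 passed, and 1, Igtp, passed with 1 surrogate variable, with DESeq2's Wald test and with the replicate block as a random effect. Within MP, within LSK and for the interaction 0 members passed in any setting.

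Over all genes, calls ranged from 0 to 1471 in total RNA (179 in the fit as reported), from 0 to 1825 in polysomal RNA (551), from 384 to 3322 in the average (1657), and from 0 up to 592 in the LSK fraction comparison, 30 in the MP one, 924 in their average and 4 in the interaction (0 each as reported). The member counts above stand without the share of all genes in the same setting. A change in them may follow how many of all tested genes passed there, so they do not show an effect on the members alone. Library totals moved the median of all genes by −0.38 to 0.24, and with them 13.1% of the calls in total RNA were higher in MP, against 25.1% with TMM.

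In 33 cases a member's log2 change turned its sign, none past the threshold. For MP over LSK in polysomal RNA, Gbp3 turned to −0.04 with library totals, −0.18 without both MP libraries numbered 1, and −0.65 without both LSK libraries numbered 2. Leaving out single libraries, it ranged from −0.65 to 2.27, Irgm1 from −1.0 to 0.09 and Gbp7 from −1.46 to 0.72. Gbp3 in the average ranged from −0.89 to 0.54. For polysomal over total RNA in LSK, Irgm2 turned to −0.12 and Gbp3 to −0.04 with library totals, Gbp3 to −0.0028 with 1 surrogate variable, −0.34 with the replicate block, −0.38 with limma on the authors' values and −0.31 with the random effect, and Gbp7 to 0.12 without both LSK libraries numbered 2. Leaving out single libraries, Irgm1 ranged from −0.0074 to 1.12, Irgm2 from −0.78 to 1.09, Gbp2 from −0.57 to 1.34, Gbp3 from −1.93 to 1.05, Iigp1 from −2.14 to 0.36 and Gbp7 from −1.78 to 0.45. In the interaction, Gbp2 turned to −0.05 with 1 surrogate variable and −0.33 without both LSK libraries numbered 2, and without single libraries it ranged from −0.43 to 1.50 and Igtp from −0.61 to 0.17. Gbp3 averaged over populations ranged from −0.19 to 1.29. The cause was not tested.

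Deviations of libraries from their group mean were correlated, and r was positive in the pairs checked that were numbered 1. There r was 0.48 for LSK polysomal with LSK total, 0.51 for MP polysomal with MP total, 0.71 for MP total with LSK total and 0.69 for MP polysomal with LSK polysomal. MP polysomal 2 did not deviate together with MP total 2 (−0.56) or LSK polysomal 2 (−0.083). In a group of 2 libraries, library 2 deviates exactly opposite to library 1. The r of 0.48 and of 0.71 therefore holds equally for the same pairs numbered 2. These values cannot set the libraries numbered 1 apart from those numbered 2. Whether equal numbers mark a shared preparation or batch was not tested, and the main fit used no pairing. The MP total values of Iigp1 rest on 9 and 6 counts.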
